A study of Homo sapiens with 36 samples.

Results

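SHOX2 and RSRC1, a pair of adjoining protein-coding genes in band q25 of chromosome 3, were followed in Jurkat cells in which a guide RNA directed a transcriptional activator to RELA. They are 2 of the 74628 genes in the count table. SHOX2 was chosen by its own counts, near silent under the control guide and high under the RELA guide, so its difference between the guides is given here as a description, with no test. RSRC1 was taken for its position beside SHOX2. Its counts, and the changes of both genes between days, did not enter the choice. They were tested, except for SHOX2 between days of sgControl, where it had too few counts.

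Jurkat is a human T-cell leukaemia line. The cells of both groups carried dCas9-VP64, a nuclease-dead Cas9 fused to an activation domain, marked by mCherry, and received a lentiviral pXPR vector with either sgRELA or sgControl, which the labels call non-targeting. Puromycin selection lasted 3 days in both groups, and cells were collected on day 5, 6 or 7 after transduction, with 3 biological replicates for each guide and day. From each of the 18 RNA samples 2 libraries were made by RamDA-seq, a random-primed full-length method for very small amounts of total RNA, which gave 36 libraries. The labels name 1 guide per group, and what RELA does and what that guide does elsewhere in the genome therefore cannot be told apart. In bulk RNA, more SHOX2 per cell and more cells that express it cannot be told apart either.

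SHOX2 (short stature homeobox 2) encodes a transcription factor with a paired-class homeodomain. It is known for patterning the proximal limb skeleton, the palate and facial neurons, and for the sinoatrial node of the heart, where it holds back the atrial muscle programme set by NKX2-5 and sustains pacemaker genes such as TBX3, ISL1 and HCN4. It is a close relative of SHOX, and is not part of the usual T-cell programme. RSRC1 encodes an arginine- and serine-rich protein of the spliceosome that takes part in 3′ splice site recognition and alternative splicing, a function used in most cells. RELA, the gene that the guide was meant to raise, encodes p65, a subunit of the NF-kB transcription factors.

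In GENCODE v29 on GRCh38, SHOX2 (ENSG00000168779) lies on the minus strand at chr3:158095954-158106503 and RSRC1 (ENSG00000174891) on the plus strand at chr3:158105855-158545730. The genes are read away from each other, and in this annotation their 5′ ends overlap by 649 bases, from position 158105855 to position 158106503. Of the 5045 exon bases of SHOX2 and the 5117 of RSRC1, 156 are shared. RefSeq on GRCh38.p14 places the start of RSRC1 further away and leaves 3668 bases between the outer 5′ ends of the genes. Which annotation and strand setting were behind the counts is not given in the sources used here, so reads in the shared bases cannot be assigned to one of the genes with certainty.

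The adjoining genes, one high under sgRELA and one not, are read in opposite directions. The 250 bases before the start site that the RefSeq promoter table gives for each gene are therefore shown, as separate windows. For SHOX2 that start site is position 158106163, which lies 257 bases inside the outer 5′ end of the RefSeq gene at 158106420, so the SHOX2 window falls within the longest extent of the gene. For RSRC1 the start site is the outer end, 158110089. They are written 5′ to 3′ on the strand of the gene, with the longest unbroken run of C and T in capitals. The SHOX2 window is chr3:158106164-158106413 on the minus strand and the RSRC1 window is chr3:158109839-158110088 on the plus strand.
SHOX2: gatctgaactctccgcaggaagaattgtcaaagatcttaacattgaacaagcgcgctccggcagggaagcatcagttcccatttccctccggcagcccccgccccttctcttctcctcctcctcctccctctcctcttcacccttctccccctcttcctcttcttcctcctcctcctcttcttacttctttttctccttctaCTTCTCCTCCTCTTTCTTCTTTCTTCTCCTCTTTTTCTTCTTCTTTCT
RSRC1: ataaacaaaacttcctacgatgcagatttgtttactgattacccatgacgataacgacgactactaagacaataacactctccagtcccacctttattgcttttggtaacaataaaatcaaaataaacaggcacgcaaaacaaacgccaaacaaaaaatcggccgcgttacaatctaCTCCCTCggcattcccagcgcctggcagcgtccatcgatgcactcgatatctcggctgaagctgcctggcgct

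The windows differ in composition. C and T made up 79.2% of the SHOX2 window, which ends at the start site of the table in a run of 48 such bases, against 51.2% and a longest run of 7 in the RSRC1 window. Among 35116 RefSeq windows of the same length the median share of C and T was 50% and the median longest run was 9, and 0.0854% of windows had a run of 48 or more. GC content was 50.4% for SHOX2 and 45.2% for RSRC1, with 6 and 16 CG steps. Both strands were searched for the NF-kB consensus (kappaB site), the GC box letters GGGCGG, the TATA box letters TATAAA and the letters of the CCAAT box, which were present in 9.96%, 42.6%, 10.7% and 32% of all windows. The SHOX2 window held 1 GGGCGG, on the opposite strand, and none of the other letters, and the RSRC1 window held none of the 4. A match or its lack in a window of this length is a description of the letters alone.

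Library totals lay between 7586205 and 16124473 counts, and 25398 to 29057 genes were detected in a library. RELA, the targeted gene on chromosome 11, checked the labels. Its normalised level (CPM, counts relative to the library total after TMM scaling) was 20.2 to 39.3 in the 9 sgControl samples and 120 to 318 in the 9 sgRELA samples, with no overlap. All 11 T-cell markers had counts under both guides, with summed levels of 3515 to 4660 CPM in sgControl and 3659 to 4849 CPM in sgRELA, and across days edgeR and DESeq2 each called 0 of the 11 between the guides, where edgeR called 0.363% of all genes. At an unadjusted p under 0.05 there were 3 of the 11, beside 1947 of all 28888 genes, and 10 of the 11 had a positive log2 fold change, with a median of 0.07 beside -0.0019 over all genes. Of the markers of other cell types, EPCAM, COL1A2, LUM and ISL1 had 0 counts throughout, while the B-cell marker CD79A was at 19.8 CPM in sgControl and 56.0 CPM in sgRELA and the fibroblast marker COL1A1 at 6.23 and 5.73 CPM. Markers of cardiac pacemaker cells, of which SHOX2 is one, summed to at most 0.784 CPM in sgControl and 1.89 CPM in sgRELA over HCN4, ISL1 and TBX3.

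SHOX2 was almost undetected under sgControl and clearly expressed under sgRELA on every day. With the 2 libraries of a sample added, the sgControl samples held 13, 8 and 3 counts on day 5, 18, 0 and 6 on day 6, and 4, 6 and 18 on day 7. That is 76 counts in 206098596, and 7 of the 18 sgControl libraries had none. For the sample with no count, the limit that a count of 0 allows, 3 counts, is 0.134 CPM. The sgRELA samples held 308, 359 and 508 counts on day 5, 290, 246 and 270 on day 6, and 302, 221 and 232 on day 7, together 2736 in 218059605. No sgRELA library had fewer than 109 counts and no sgControl library more than 18.

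In CPM, SHOX2 on day 5 was 0.570, 0.366 and 0.129 under sgControl and 12.5, 14.4 and 17.5 under sgRELA. On day 6 the sgControl samples had 0.883, 0 and 0.266 CPM and the sgRELA samples 12.7, 11.01 and 14.1 CPM. On day 7 the values were 0.166, 0.257 and 0.711 CPM under sgControl and 11.9, 8.97 and 9.73 CPM under sgRELA. Every sgRELA sample was above every sgControl sample, and the lowest sgRELA value was 10.2 times the highest sgControl value. This separation is what chose the gene.

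**Figure D1:**
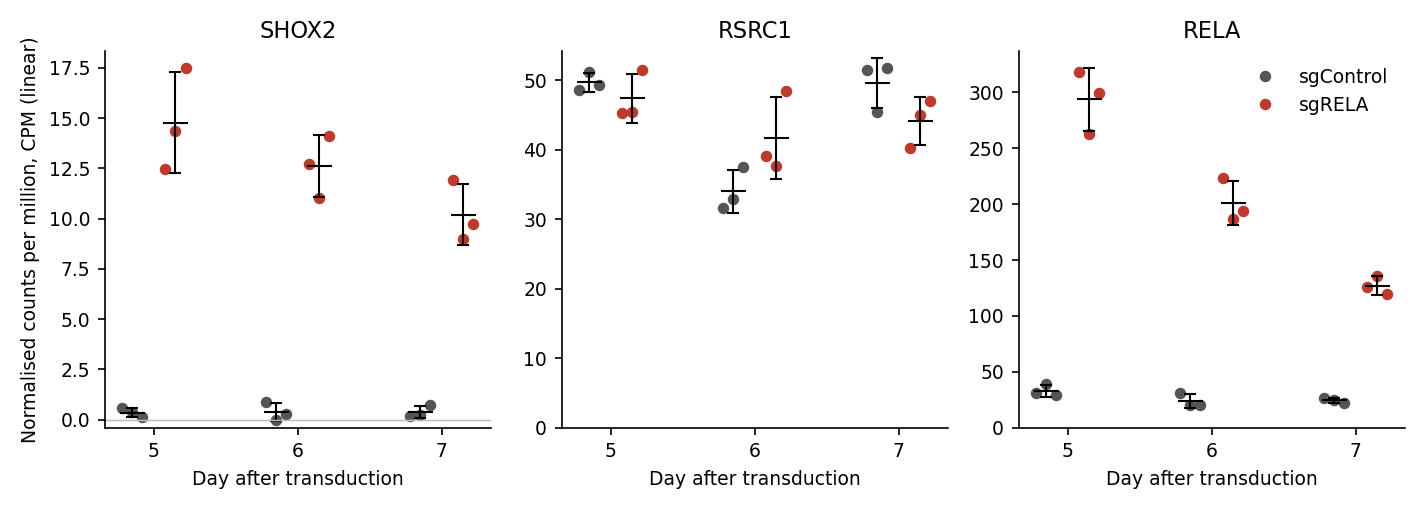
Levels of SHOX2, RSRC1 and RELA in each RNA sample on a linear axis of normalised CPM, by day after transduction; points are the 3 biological replicates per guide and day, the horizontal bar is their mean and the whiskers are 1 SD. SHOX2 lies at 8.97 to 17.5 CPM under sgRELA and at 0 to 0.883 CPM under sgControl, RSRC1 overlaps between the guides on days 5 and 7, and RELA under sgRELA steps down from day to day.

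The mean SHOX2 level was 0.355 ± 0.220 CPM in sgControl and 14.8 ± 2.5 CPM in sgRELA on day 5 (SD, n = 3 each), a ratio of 41.6. On day 6 it was 0.383 ± 0.453 and 12.6 ± 1.6 CPM, a ratio of 32.9, and on day 7 0.378 ± 0.292 and 10.2 ± 1.5 CPM, a ratio of 27.0. The fitted log2 fold change was 5.36 ± 0.56 (SE) on day 5, 5.06 ± 0.55 on day 6 and 4.72 ± 0.54 on day 7. With counts added over the days it was 5.09 ± 0.25, from 3 sums against 3, and 6.07 with the first or 4.45 with the second libraries alone. On day 6 the first libraries alone gave 6.58 and the second 4.41, and the value was 6.51 without sgControl replicate 1 and 4.47 without sgControl replicate 2. On day 7 the first libraries alone gave 7.29 and the second 3.84, and the value was 5.56 without sgControl replicate 3. The background for that comparison across days was 0.242% of 28888 genes tested called higher, which is printed here for scale only, since the contrast chose the gene.

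In order of level, the 3 sgRELA groups came first, day 5 above day 6 above day 7, and the 3 sgControl groups lay together far below. Neighbouring days of sgRELA overlapped in their ranges, while day 5 (12.5 to 17.5 CPM) and day 7 (8.97 to 11.9 CPM) did not. The sgControl days could not be put in order: each range covers the means of the other 2. Ranked by mean CPM among all 74628 genes of the table, SHOX2 was at place 23628 on day 5 of sgControl and at place 9223 on day 5 of sgRELA. Per kilobase of exon, day 5 of sgRELA gave 2.93 ± 0.50 CPM for SHOX2, 9.26 ± 0.68 for RSRC1 and 53.8 ± 5.2 for RELA (SD, n = 3). By that length-scaled level SHOX2 under sgRELA lay below its neighbour RSRC1.

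The paired libraries of one RNA sample show how much of the spread arises in library making. Under sgRELA the higher of the 2 libraries exceeded the lower by 1.04 to 1.74 times for SHOX2, with a median of 1.16 over 9 samples. The widest pair was day 5 replicate 2, with 241 and 118 counts. Under sgControl the pairs were often uneven, as for day 6 replicate 1 with 0 and 18 counts and day 7 replicate 3 with 2 and 16. Even numbers prevailed in the table, with 73368 values of 2 against 48693 values of 1, and 9 of the 11 sgControl libraries with a SHOX2 count had an even one. Whether both ends of a fragment were counted is not given in the sources used here, and no molecular identifiers are mentioned, so limits from counts cover counting error only.

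**Figure D2:**
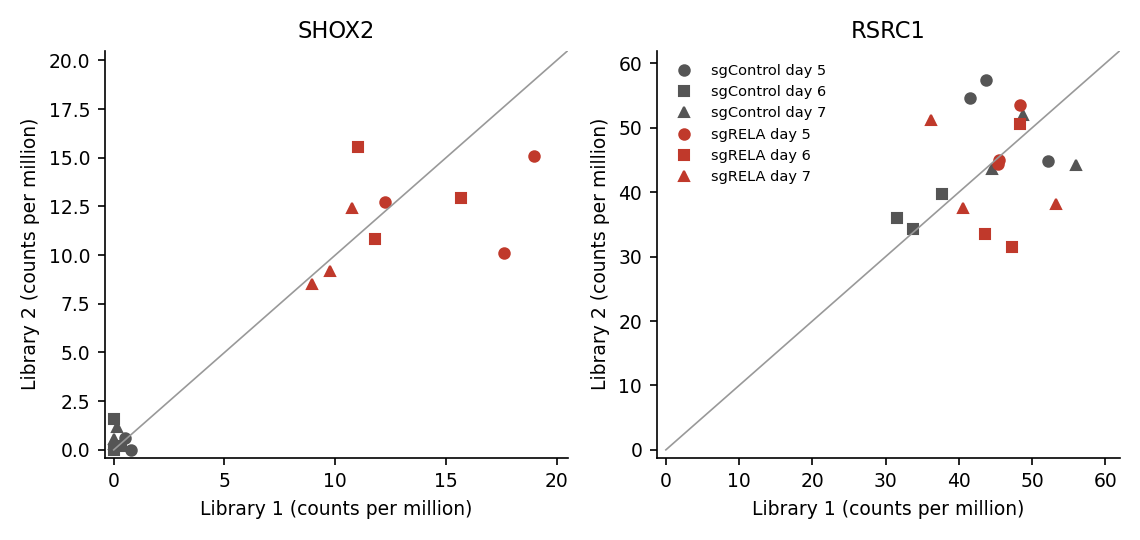
CPM of the second library against the first library of each RNA sample for SHOX2 and RSRC1, both axes linear, with the line of equal values; colour gives the guide and marker shape the day. For SHOX2 the sgControl pairs sit in the corner at or below 1.59 CPM and the sgRELA pairs between 8.52 and 19.0 CPM, and for RSRC1 both guides share 1 cloud.

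Whether SHOX2 changed from day to day was a separate question, tested within sgRELA. Under sgRELA the log2 change from day 5 to day 7 was -0.53 ± 0.42 (SE), with a 95% interval of -1.40 to 0.33 and an adjusted p of 0.508 by edgeR's quasi-likelihood test. Of all genes tested, 12.4% were called in that comparison. With only those 2 groups in the fit the estimate was the same and the adjusted p was 0.106. The fit of all 18 samples shares 1 estimate of the spread, to which the low sgControl counts of SHOX2 also contribute. The steps from day 5 to day 6 (-0.23 ± 0.42, adjusted p 0.855) and from day 6 to day 7 (-0.31 ± 0.42, adjusted p 0.778) did not pass either, in comparisons where 6.91% and 12.2% of genes were called. Under sgControl, with 0 to 18 counts per sample, SHOX2 was in the fit only through its sgRELA samples and dropped out when the compared sgControl groups were fitted alone, so no test is given there. The fitted log2 changes were 0.07 ± 0.66 from day 5 to day 6, 0.03 ± 0.64 from day 6 to day 7 and 0.11 ± 0.64 from day 5 to day 7 (SE), with intervals as wide as -1.27 to 1.42. The test for a guide effect that differs between days (F test on 2 coefficients, edgeR) called 0.00363% of genes. For SHOX2 it rests on the same low sgControl counts, so it cannot decide the question and no p-value is given. The change of the SHOX2 guide effect from day 5 to day 7 was -0.64. It was 2.03 with the first and -1.54 with the second libraries alone.

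RELA itself went down over the same days under sgRELA. Its samples spanned 263 to 318 CPM on day 5, 187 to 223 on day 6 and 120 to 136 on day 7, and the log2 change from day 5 to day 7 was -1.21 ± 0.13 (adjusted p 6.4e-08, edgeR). For each 100 CPM of RELA there were 5.07 ± 1.01 CPM of SHOX2 on day 5, 6.30 ± 0.87 on day 6 and 8.06 ± 1.43 on day 7 (SD, n = 3). The 95% intervals of the change from day 5 to day 7 were -1.40 to 0.33 for SHOX2 and -1.47 to -0.95 for RELA. They overlapped, but both come from the fit of all 18 samples, and the difference between the genes was not tested. Over the 9 sgRELA samples, Pearson's r of SHOX2 with RELA was 0.75 on log2(CPM + 1), given with no test. These samples form 3 separate sets of RELA values, one for each day. A link with RELA and a link with the day therefore cannot be told apart in this r, and within a day 3 samples are too few.

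**Figure D3:**
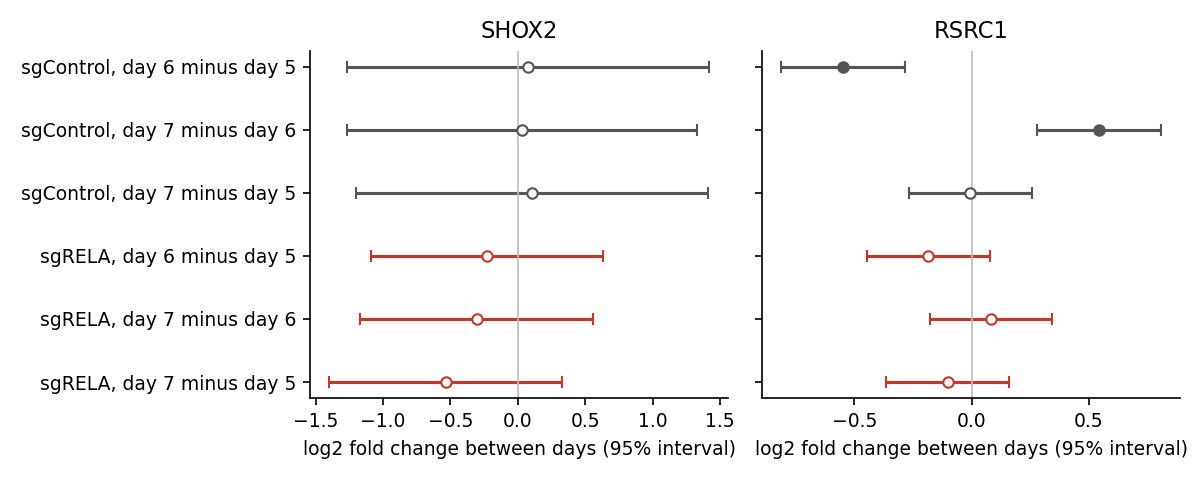
Log2 fold change between days within each guide for SHOX2 and RSRC1, with 95% intervals from the fit of all 18 samples; filled points passed an adjusted p of 0.05. The filled points are those of RSRC1 under sgControl, at -0.55 from day 5 to day 6 and 0.54 from day 6 to day 7, and the SHOX2 intervals under sgRELA include 0; those under sgControl come from 0 to 18 counts per sample.

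RSRC1 was expressed at a similar level under both guides. On day 5 its samples had 48.6, 51.2 and 49.4 CPM under sgControl and 45.3, 45.5 and 51.4 CPM under sgRELA, which overlap. On day 7 they had 51.5, 45.4 and 51.7 CPM under sgControl and 40.3, 45.0 and 47.1 CPM under sgRELA, which overlap again. Only on day 6 were the ranges apart, and barely, with 31.7, 32.9 and 37.5 CPM under sgControl and 39.0, 37.6 and 48.4 CPM under sgRELA. The log2 fold changes of sgRELA over sgControl were -0.07 ± 0.13, 0.29 ± 0.13 and -0.17 ± 0.13 (SE) on days 5, 6 and 7, with edgeR adjusted p of 0.998, 0.756 and 1. The percentages of genes called were 0.138%, 0.214% and 0.0907% on those days. On day 6 the 95% interval was 0.03 to 0.56. The unadjusted p was 0.030 (edgeR), and 1672 of 27553 genes were under 0.05. The day 6 value was 0.48 with the first and 0.08 with the second libraries alone.

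Over all days RSRC1 reached 44.6 ± 1.6 CPM under sgControl and 44.5 ± 4.1 CPM under sgRELA (SD, n = 3 sums). The log2 fold change was -0.0021 ± 0.0785 (SE) with a 95% interval of -0.17 to 0.16, that is 0.892-fold to 1.12-fold, and an adjusted p of 0.999, where 0.363% of genes were called in either direction.

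What did move in RSRC1 was its level between days under sgControl. From 49.7 ± 1.4 CPM on day 5 it fell to 34.0 ± 3.0 CPM on day 6 and rose to 49.5 ± 3.6 CPM on day 7 (SD, n = 3). The log2 changes were -0.55 ± 0.13 (adjusted p 0.0053) and 0.54 ± 0.13 (adjusted p 0.0030) by edgeR, and day 7 against day 5 gave -0.01 ± 0.13 (adjusted p 0.989). Of all genes, 8.87% were called between day 5 and day 6 of sgControl, 14.6% between day 6 and day 7 and 13% between day 5 and day 7. In sgRELA the corresponding means were 47.4 ± 3.5, 41.7 ± 5.9 and 44.1 ± 3.5 CPM, and the log2 changes of -0.19 ± 0.13, 0.08 ± 0.13 and -0.10 ± 0.13 had adjusted p of 0.492, 0.810 and 0.714. The difference between guides in these changes did not pass (interaction, F test on 2 coefficients, edgeR adjusted p = 1). In that test 0.00363% of genes were called. Its unadjusted p for RSRC1 was 0.041, and 1291 of 27553 genes were under 0.05. The dip is therefore not shown to be limited to sgControl.

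The calls of the dip were lost with part of the libraries. The fall from day 5 to day 6 had an adjusted p of 0.203 with the first libraries alone, 0.0747 with the second alone and 0.0560 without sgControl day 5 replicate 2 and day 6 replicate 1, whose RNA gave the libraries poorest in detected genes; the log2 change stayed between -0.55 and -0.49. The rise from day 6 to day 7 had an adjusted p of 0.174 with the second libraries alone. Paired libraries of one RNA sample differed for RSRC1 by up to 1.32 times in sgControl and 1.50 times in sgRELA, with medians of 1.14 and 1.11. The fitted rise in sgControl was 1.46 times. It compares group means rather than single libraries, so these ratios are not on the same scale.

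Many splicing genes moved with the day. Of 39 genes, RSRC1 included, for SR proteins, SR-related proteins and the kinases that phosphorylate them, 39 were tested across days, where edgeR and DESeq2 each called 0 between the guides, with 0 at an unadjusted p under 0.05, and the median log2 fold change was 0.01 beside -0.0019 over all genes. Between day 5 and day 6 of sgControl, 14 of the 39 fell and 1 rose, with a median of -0.22 beside 0.04 over all genes tested, of which 5.58% fell and 3.29% rose. Between day 6 and day 7 of sgControl, 20 rose and 1 fell, with a median of 0.32 beside -0.07 over all genes, of which 8.25% rose and 6.31% fell. Under sgRELA 9 fell and none rose in the first step, where 4.34% of all genes fell and 2.57% rose, and 19 rose and 2 fell in the second, where 7.21% of all genes rose and 5.02% fell. With the first libraries alone, 2 of the 39 fell in the first step of sgControl and 12 rose in the second; with the second libraries alone, or with only the compared groups in the fit, 8 fell in the first.

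Several members fell and then rose under sgControl, as RSRC1 did. RSRC2, an SR-related protein of the same name family, fell from 57.7 ± 6.6 to 33.4 ± 3.7 CPM and rose to 45.7 ± 5.2 CPM (SD, n = 3). SRSF7, an SR protein that also serves mRNA export, went from 72.6 ± 9.8 to 45.8 ± 10.3 and then to 115 ± 7 CPM. SRSF4, another SR splicing factor, went from 117 ± 6 to 78.8 ± 6.4 and to 108 ± 5 CPM, and SRRM1, a coactivator of splicing, from 128 ± 5 to 89.5 ± 9.4 and to 114 ± 9 CPM. All 4 passed in both steps of sgControl. Unlike RSRC1, SRSF7 was also called higher on day 7 than on day 5 (0.67 on the log2 scale, edgeR adjusted p 0.00086). SRSF1 and SRSF2, general SR splicing factors, passed only in the second step. There SRSF1 rose from 250 ± 22 to 471 ± 7 CPM and SRSF2 from 148 ± 14 to 297 ± 13 CPM. Under sgRELA, SRRM1 passed in both steps, RSRC2 only in the first, SRSF7 only in the second and SRSF4 in neither.

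The wider neighbourhood was examined for the same contrast. Within 1 Mb on either side of SHOX2, GENCODE v29 lists 38 genes, of which 32 were in the table. Besides SHOX2 there were 31, 8 of them without a single count, and 15 could be tested across days. By edgeR 0 of the 15 were called, beside 0.363% of all genes, with 0 at an unadjusted p under 0.05 and 0 called by DESeq2, and their median log2 fold change was -0.07 beside -0.0019 over all genes. All 15 intervals included 0. The samples' sums did not overlap between the guides for 2 of the 31, named here after their values were seen. How many of all genes show such a separation was not counted, so it is not read as a result. ENSG00000271778, a noncoding gene within the span of MFSD1 on the same strand, had 4 counts in sgControl and 31 in sgRELA, with 0 to 0.030 CPM against 0.123 to 0.166 CPM, and did not pass the filter. PCBP2P4, a processed pseudogene, had 58 and 16 counts, with 0.193 to 0.393 CPM against 0.028 to 0.164 CPM, and a log2 fold change of -1.90 ± 0.96 (SE).

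Of the coding neighbours, 7 besides SHOX2 were tested across days, in order along the chromosome CCNL1, VEPH1, RSRC1, GFM1, LXN, RARRES1 and MFSD1. CCNL1, a cyclin linked to splicing, was at 60.5 CPM in sgControl and 60.1 CPM in sgRELA, and GFM1, a mitochondrial translation elongation factor, at 58.1 and 56.7 CPM. MFSD1, a lysosomal transporter, was at 22.8 and 24.0 CPM. The other 3 were low: VEPH1 at 1.24 and 1.03 CPM, LXN, a carboxypeptidase inhibitor, at 1.34 and 1.27 CPM, and RARRES1, a retinoid-responsive gene, at 1.75 and 1.88 CPM. The 95% interval was -0.15 to 0.13 for CCNL1, -0.21 to 0.14 for GFM1 and -0.15 to 0.28 for MFSD1, and it was wider for the low genes, down to -0.97 for VEPH1. MLF1, IQCJ, PTX3 and SLC66A1L, also coding, were at or below 0.138 CPM under both guides and could not be tested there.

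Some neighbours were called between days, given here with the share of all genes called beside each count. From day 5 to day 6 these were 2 of 15 in sgControl, RSRC1 and GFM1, beside 8.87% of all genes, and 1 of 15 in sgRELA beside 6.91%. From day 5 to day 7 they were 2 of 15 under either guide, beside 13% and 12.4%. From day 6 to day 7 RSRC1 was the 1 of 15 called in sgControl, beside 14.6%, and in sgRELA edgeR called 0, with 1 at an unadjusted p under 0.05 and 1 called by DESeq2, beside 12.2%. GFM1 fell from day 5 to day 6 under both guides, by 0.49 and 0.47 on the log2 scale in sgControl and sgRELA (adjusted p 0.0151 and 0.0279, edgeR). Between day 5 and day 7 CCNL1 fell by 0.54 in sgControl and by 0.37 in sgRELA (adjusted p 0.0011 and 0.0265), and GFM1 fell by 0.40 in sgRELA (adjusted p 0.0434). The noncoding gene ENSG00000279311 was called between day 5 and day 7 of sgControl on 0 and 59 counts.

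**Figure D4:**
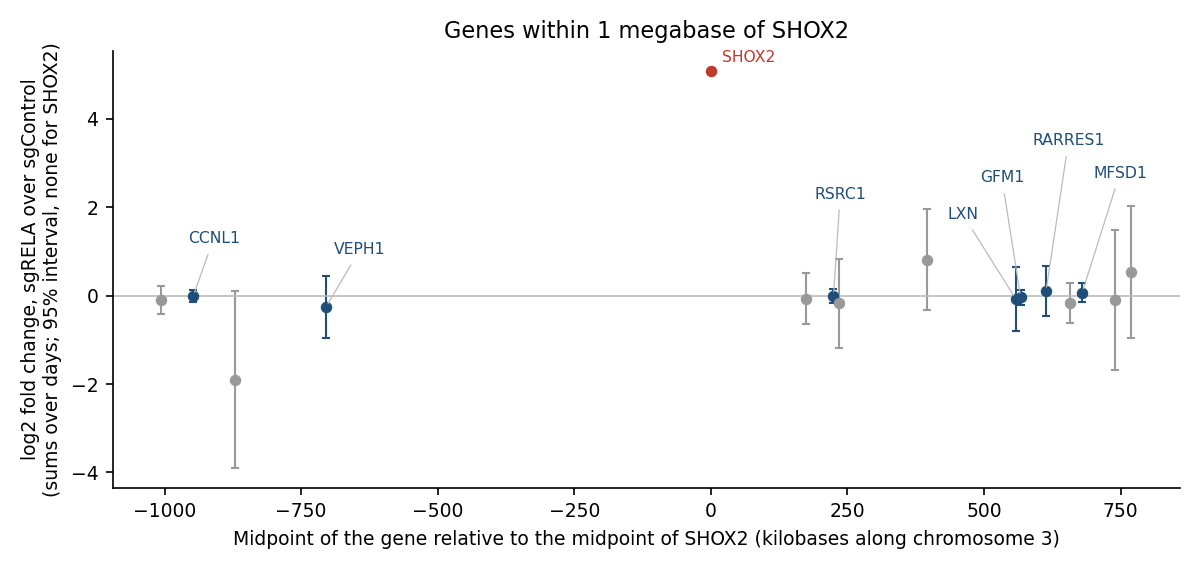
Log2 fold change of sgRELA over sgControl from counts added over the days, for SHOX2 (red, with no interval since this contrast chose it) and, with 95% intervals, the 15 tested genes within 1 Mb (coding in blue, other biotypes in grey), placed by the distance of their midpoints from that of SHOX2 along the chromosome. SHOX2 is drawn at 5.09, and the intervals of the 15 neighbours include 0.

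The paired-class homeobox genes, the family of SHOX2, were followed for the same contrast. Of 45 genes on the list, 4 lacked any count and 17 passed the filter on low counts. SHOX2 held place 15 by mean CPM among the 45 under sgControl and place 2 under sgRELA, below PAX6 (14.9 CPM), an eye and neural regulator. Per kilobase of exon SHOX2 also held places 15 and 2, but below GSC under sgRELA, and PAX6 was at place 7 under both guides. SHOX, the closest relative, had 13 counts under sgControl and 5 under sgRELA in all, and was not tested. Besides SHOX2, 1 of the 16 other tested members was called across days and the median log2 fold change was 0.10, beside -0.0019 over all genes and 0.363% of genes called. At an unadjusted p under 0.05 there were 4 of the 16, beside 1947 of 28888 genes.

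The called gene was GSC (goosecoid), a regulator of early axis formation. Its sums over the days were 3.97, 4.14 and 6.00 CPM under sgControl and 7.45, 8.52 and 9.75 CPM under sgRELA, with no overlap. The log2 fold change was 0.86 ± 0.19 with an adjusted p of 0.0486 (edgeR), and in 8 of 14 alternatives the adjusted p was above 0.05, up to 0.537. On single days GSC did not pass. ALX4, a craniofacial homeobox gene, was at 0.833 ± 0.146 and 1.54 ± 0.16 CPM, with an adjusted p of 0.550, and the limb regulator PITX1 at 5.21 ± 0.49 and 3.94 ± 0.09 CPM, with an adjusted p of 0.728 (SD, n = 3 sums).

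**Figure D5:**
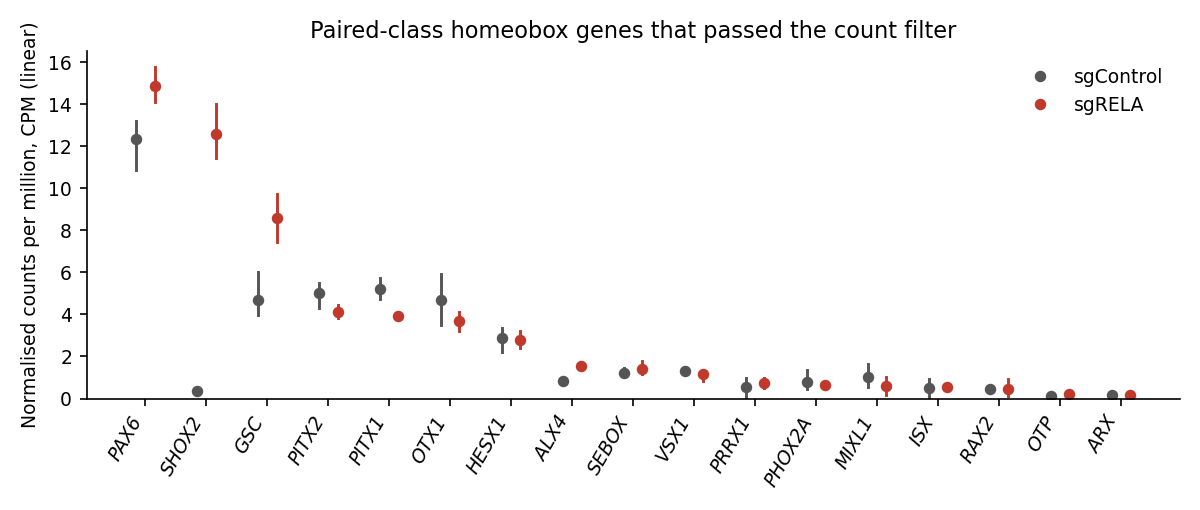
Normalised CPM of the 17 paired-class homeobox genes that passed the filter across days, ordered by their sgRELA level on a linear axis; points are means and lines the range of 3 sums over days for each guide. SHOX2 lies at 0.368 CPM under sgControl and 12.6 CPM under sgRELA, and GSC is the other gene that was called.

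Genes that SHOX2 is known to act with or on were not called between the guides. The list held 28 genes of the heart pacemaker, limb and cartilage programmes, of which 15 were tested across days, with a median log2 fold change of -0.06 beside -0.0019 over all genes and 0 called beside 0.363%. At an unadjusted p under 0.05, 1947 of the 28888 genes passed by edgeR and 0 of the 15 did, and DESeq2 called 0. ISL1 and GJA5 had no count, TBX3 had 0 counts under sgControl and 2 under sgRELA, and NKX2-5 had 31 and 28. HCN4, the pacemaker channel, had 46 and 100 counts, spread unevenly: the 3 day 6 samples of sgRELA ranged from 0 to 1.89 CPM. BMP4, a signalling protein that SHOX2 is known to raise in the developing heart, was at 12.1 ± 1.6 CPM in sgControl and 11.3 ± 1.0 CPM in sgRELA, with a log2 fold change of -0.11 ± 0.14 (adjusted p 0.960). RUNX2, the bone regulator, was at 43.7 ± 3.4 and 41.9 ± 1.6 CPM, -0.06 ± 0.08 (adjusted p 0.961).

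Among the markers of other cell types, CD79A, a signalling chain of the B-cell receptor, moved with the guide. It was at 19.8 ± 0.3 CPM in sgControl and 56.0 ± 0.8 CPM in sgRELA, a log2 fold change of 1.50 ± 0.08 (SD, n = 3 sums; adjusted p 3.9e-11, edgeR). MS4A1, a membrane protein of mature B cells, was near 0, at 0.029 CPM in sgControl and 0.014 CPM in sgRELA. The part of B-cell RNA in the SHOX2 difference was not tested beyond these levels. Summed fibroblast markers lay at 4.19 to 10.3 CPM in sgControl and 1.95 to 9.22 CPM in sgRELA, nearly all of it COL1A1, and summed epithelial and monocyte markers were at or below 2.84 CPM in every sample.

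The genes whose pattern was most like that of SHOX2 over the 18 samples, by Pearson's r of log2(CPM + 1), were C3 (0.981), CD79A (0.978), RELA (0.973), LONRF1 (0.973) and RNPEP (0.972). C3 is the central complement component, LONRF1 a RING finger protein and RNPEP an aminopeptidase. The samples fall into 2 sets by guide, so these values mainly restate the contrast that chose SHOX2. Of 27552 other genes, 8 had an r over 0.9. Within the 9 sgRELA samples alone the order was different, with IPO8, a nuclear import receptor, first (0.969), then PWWP2B (0.948), CFAP47 (0.946), ENSG00000213150 (0.945) and RPH3AL-AS2 (0.943). There 33 of 27547 genes had an r over 0.9, so that values of this size are found among so many genes over 9 samples that share their days. For RSRC1 over the 18 samples the closest were MAP4K4 (0.867), TNPO3 (0.861), NUP98 (0.858), SMC1B (0.851) and MAP3K4 (0.850), and none of the 27552 others had an r over 0.9. TNPO3 carries SR proteins into the nucleus and NUP98 is a nuclear pore protein. RSRC1 and SHOX2 had an r of 0.06.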

How the data were processed

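RNA of 18 samples, 3 per guide and day, was measured in 36 RamDA-seq libraries. The authors deposited raw read counts per Ensembl gene, with no normalization per the labels. Per the submitters' processing notes, reads were handled with cutadapt 1.18 and STAR 2.7.9a on GRCh38; the counting tool, annotation, strand setting and treatment of reads with several matches are not given in the sources used here. Of 74628 identifiers, 57693 matched a listed gene name; coordinates and exon lengths are from GENCODE v29 and sequences from RefSeq on GRCh38.p14.

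Groups and replicate numbers came from the labels. The 2 libraries of each RNA were added up. The 18 sums were fitted with 6 group means, and sums over the days with 3 against 3, using edgeR 4.0.16 in R 4.3.3 (TMM, filterByExpr with a minimum count of 10, quasi-likelihood F test, Benjamini-Hochberg adjustment over all genes, calls at an adjusted p under 0.05). Standard errors were derived from the F statistic. Levels are TMM-scaled CPM, and those of single libraries are unscaled CPM. Libraries held 7586205 to 16124473 counts, which limits the precision for genes as low as SHOX2 in sgControl. The labels call the replicates biological without saying how they were grown apart, so p-values measure the spread between these samples. The method was tested on simulated data.

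The members and gene lists were chosen with earlier results of these data known. Named were the members, RELA, coding neighbours within 1 Mb that passed the filter, neighbours that were called, from each list the genes called or up to 3 with the smallest p, with examples among the splicing genes chosen after their values were seen, and the 5 genes with the highest Pearson's r to a member on log2(CPM + 1), with a pseudocount of 1. Alternatives were DESeq2 1.42.0 as the test and for size factors, no filter, either library set alone, omission of 2 RNA samples whose libraries were poorest in detected genes, a fit of the compared groups only, 18 sums with guide and day terms, a replicate block and omission of each replicate. Same-numbered samples did not deviate together: no correlation of their deviations from the group means was above 0.1, so the numbers were not taken as pairs. One gene of the marker lists is not reported here.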

Additional observations from a re-analysis of the deposited data

Results flagged for a closer look

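For SHOX2 and RSRC1, the 6 libraries of each guide and day were searched for one that stood apart from the others, 12 searches in all. Chance flags about 1 in 20 such searches if the values are normally distributed. SHOX2 had 0 counts in 7 of the 18 sgControl libraries, so that rate need not hold there. In 1 search a library stood apart: SHOX2 in the second library of sgControl day 6 replicate 1, with 18 counts or 1.59 CPM before TMM scaling. The first library of the same RNA had 0 counts. The next highest library of that group had 4 counts, and every sgRELA library had at least 109.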

How the results depend on the processing

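The guide contrast chose SHOX2, so the sign of its refits was fixed in advance and only their size is described. Its log2 fold changes over 14 alternatives of each guide comparison were 4.45 to 6.07 across days. On days 5, 6 and 7 they were 4.96 to 5.89, 4.41 to 6.58 and 3.84 to 7.29. Except on day 5 they were lowest with the second and highest with the first libraries alone. RSRC1 was called between the guides in none of these alternatives. For SHOX2 within sgControl, 0 to 18 counts per sample decide the sign. With the first libraries alone its log2 changes were -1.72 (day 6 against day 5), -2.74 (day 7 against day 5) and -1.02 (day 7 against day 6), and the change of the guide effect from day 5 to day 7 was 2.03 in place of -0.64. Without the 2 RNA samples poorest in detected genes the first of these was -1.36. With single replicates left out they ranged from -1.38 to 0.66, from -0.74 to 0.63, from -0.80 to 1.51, and from -1.17 to 0.20 for the guide effect; the low ends came without sgControl day 6 replicate 1 in the first and day 7 replicate 3 in the next 2, and the high end of the last without day 7 replicate 3. No test is read from these low counts. For RSRC1 in sgControl, day 6 against day 5 gave -0.52 and -0.55 with the first and second libraries alone and -0.49 without the samples with few detected genes, no longer called; day 7 against day 6 gave 0.41 with the second libraries alone, no longer called; and day 7 against day 5 gave 0.14 with the first libraries alone, against -0.0053. The cause was not tested.

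The fit with the replicate number as a block changed no call of the members: SHOX2 across days was 5.12, RSRC1 was -0.0051, and RSRC1 in sgControl was -0.55 from day 5 to day 6. The correlations of deviations of same-numbered samples were 0.0392 at most. Counts of all genes called differed between the alternatives, and the cause was not tested. They were 42 to 235 across days against 105, lowest with the first libraries alone. On days 5, 6 and 7 they were 15 to 73, 15 to 126 and 13 to 55 against 38, 59 and 25, again lowest there. Between days they ranged from 430 to 3474 against 2445 and from 1879 to 4853 against 4012 in sgControl steps, and from 196 to 2898 against 1904 and 961 to 4157 against 3368 in sgRELA steps; from day 5 to day 7 they ranged from 820 to 4423 against 3585 and from 669 to 4371 against 3420. The interaction called 0 to 24 genes against 1. Splicing genes that fell from day 5 to day 6 of sgControl numbered 2 to 17 against 14, and those that rose from day 6 to day 7 numbered 12 to 22 against 20. Neighbours called between the guides stayed at 0.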
